A study of Mus musculus with 15 samples.

Results

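CAS-exposed duodenal organoid monolayers expressed more Tnfsf13b, Rhob, Pmepa1, Mfsd4a and Skil than SBM-exposed monolayers, and far less Cyp1a1. Cyp1a1, a cytochrome P450 that oxidizes planar aromatic compounds, was 8.16-fold lower with CAS than with SBM, and Tnfsf13b, which encodes the B cell survival factor BAFF, was 2.46-fold higher. Of 27 measured TGF-beta feedback and target genes, 5 passed the threshold of the study, all higher with CAS, where 0.234% of all genes did. Of 24 NRF2 targets 1 passed it, lower with CAS, where 0.0744% of all genes did.

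The comparison sets the 3 arrays labelled CAS (casein) against the 3 arrays labelled SBM (soybean meal), which are 6 of the 15 arrays of the series, and no MC array (medium control) enters the difference. All 5 groups of the series were confluent 2D monolayers of enteroids grown from the duodenum of female C57BL/6J mice aged 9 weeks. For 6 h, the CAS monolayers received the soluble fraction of undigested casein and the SBM monolayers that of undigested soybean meal. The 3 remaining groups received that of spray dried plasma protein (SDPP) or yellow meal worm (YMW), or DMEM alone (MC), with 3 arrays each. The labelled dose of each protein source was 4% (w/v). The paper also states the dose as a mass per volume that does not equal this share, so the final dose is uncertain. Each sample pooled 3 wells of a 96-well plate, and its total RNA was hybridized to a gene array whose probe sets each report 1 transcript cluster. The labels call the arrays of a group biological replicates without tying an array to a mouse, so the p-values measure the spread between these samples.

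Intestinal epithelium senses food both through nutrients and through minor plant compounds. The aryl hydrocarbon receptor (AHR) is a transcription factor that binds plant indoles and flavonoids and switches on cytochromes of the CYP1 family, while NRF2 switches on reductases and glutathione enzymes after exposure to electrophiles. TGF-beta acts through SMAD proteins to restrain proliferation and to drive repair of the epithelium, and its first targets include its own inhibitors, among them Smad7, Skil and Pmepa1.

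Of 18820 genes tested, 58 (0.308%) passed the threshold of the study, which asks for an unadjusted p under 0.05 together with a change of 1.5-fold or more. These were 44 genes higher with CAS (0.234% of the genes tested) and 14 genes lower with CAS (0.0744%). After Benjamini-Hochberg adjustment of the limma p-values, 36 genes (0.191%) stayed under 0.05, with 31 higher (0.165%) and 5 lower (0.0266%), and 27 genes passed both thresholds. The adjusted calls shrank to 7 higher and 1 lower when the 6 CAS and SBM arrays were fitted alone and to 10 higher and 2 lower when the MC arrays were added. At an unadjusted p under 0.05 stood 1315 genes (6.99%), and at 2194 genes (11.7%) the CAS and SBM arrays did not overlap, with 1179 genes higher (6.26%) and 1015 lower (5.39%). Genes higher with CAS made up 75.9% of the genes past the threshold of the study, and 60.8% after each array was centred on its median. Tnfsf13b, Cyp1a1, Mfsd4a, Pmepa1, Skil, Rhob and Tenm4 kept an adjusted p under 0.05 in each of the 25 alternative fits described with the processing. The balance of all genes at an unadjusted p under 0.05 depended on the scaling. It was 4.22% higher and 2.76% lower as deposited, 3.02% higher and 4.25% lower after a second quantile normalization, and 1.76% higher and 7.08% lower after median centring. The median difference over all genes was 0.01 on the log2 scale, and the median SE was 0.11.

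**Figure D1:**
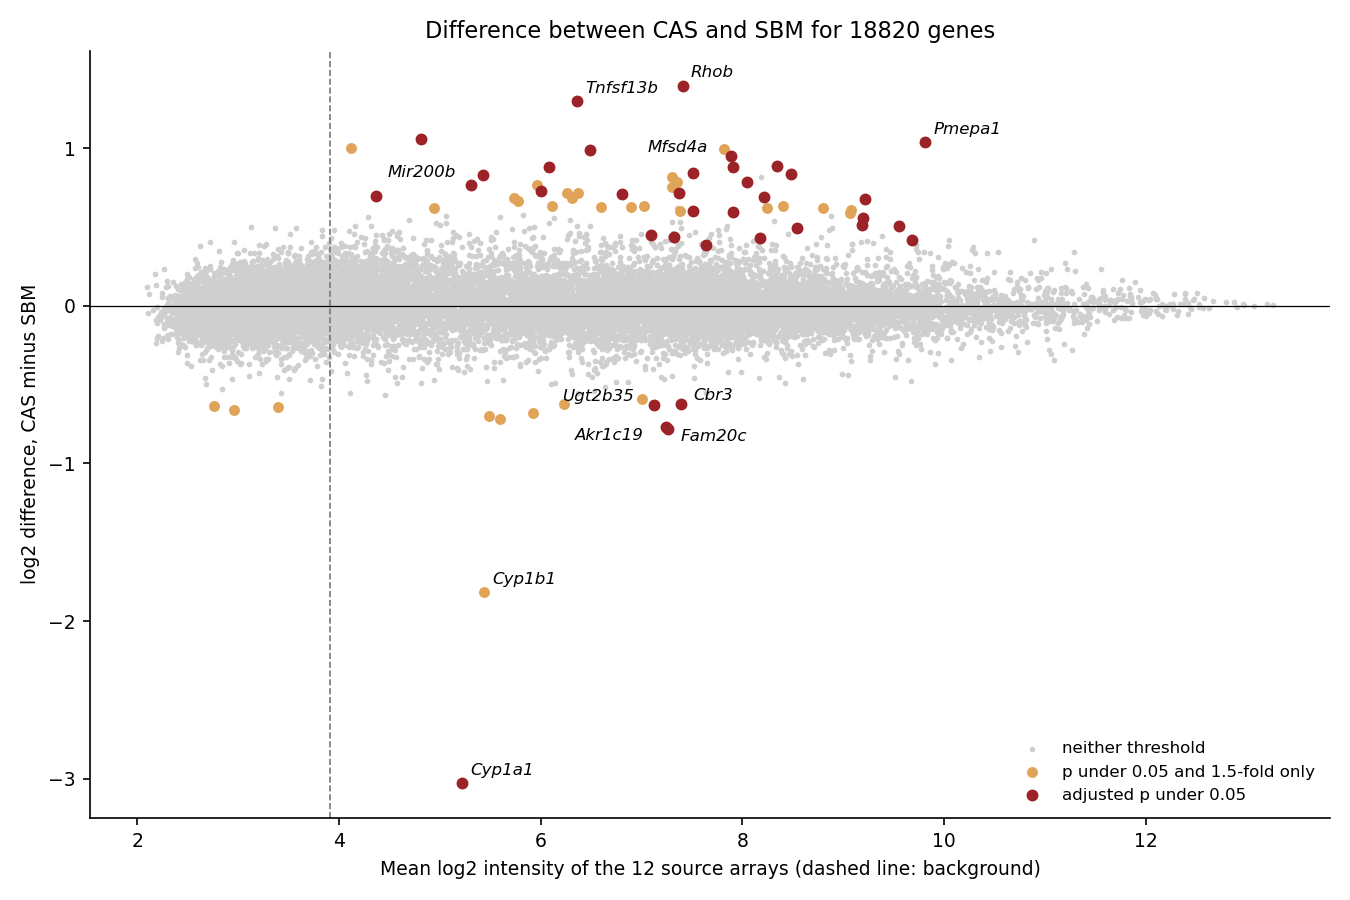
Log2 difference between CAS and SBM (vertical axis, CAS minus SBM, 3 arrays each) against the mean log2 intensity of the 12 arrays with a protein source (horizontal axis) for 18820 genes, each a point. Red points are the 36 genes with an adjusted p under 0.05, orange points passed only the threshold of the study, and the dashed line is the background at 3.91. Cyp1a1 at −3.03 and Cyp1b1 at −1.82 lie far below all other genes, and Rhob and Tnfsf13b lie highest.

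Marker genes of the epithelial cell types were checked first. Lyz1, the lysozyme of Paneth cells, had a log2 intensity of 11.58, 11.49 and 11.20 with CAS and 11.60, 11.57 and 11.19 with SBM. Muc2, the main mucin of goblet cells, had 8.88, 8.82 and 9.30 with CAS and 8.97, 9.22 and 9.08 with SBM. Olfm4, a marker of crypt base stem cells, had 11.85, 11.66 and 11.27 with CAS and 11.89, 11.77 and 11.23 with SBM. The groups overlapped for all 3 genes. Of 22 measured enterocyte markers, 13 goblet cell markers and 13 tuft cell markers, 0 passed the threshold of the study in limma and 0 had an unadjusted p under 0.05, and 0 of 23 enteroendocrine markers passed the threshold. The stem cell list had 1 member of 16 past it, Sox9, a transcription factor of the crypt, which was higher with CAS by 0.61 ± 0.15 (log2, SE, adjusted p = 0.203) and not past it after median centring. At an unadjusted p under 0.05 the stem cell list had 2 members higher (Sox9 and Rnf43) and 2 lower (Smoc2 and Tnfrsf19), and of 11 Paneth cell markers 2 were higher (Mmp7, 0.27, and Habp2, 0.36) and 1 was lower (Nupr1, −0.22), where 4.22% of all genes were higher and 2.76% lower. Markers of immune cells averaged a log2 intensity between 4.19 and 4.23 over the CAS arrays and between 4.17 and 4.24 over the SBM arrays, close to the background of 3.91, and 0 of their 13 measured members passed the threshold or an unadjusted p under 0.05. Markers of mesenchyme, endothelium and nerve were as dim, but their mean was 4.12, 4.12 and 4.16 on the CAS arrays and 4.05, 4.11 and 4.02 on the SBM arrays, with no overlap. Of these 15 measured members 13 had a positive difference, 8 averaged above background, 0 passed the threshold and Pdgfra, below background on every CAS and SBM array, was higher at an unadjusted p under 0.05 (0.35). The part of these markers in the results on TGF-beta and matrix genes was not tested.

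Enterocyte markers varied widely between the arrays of each source. The mean of the 22 markers was 7.65, 7.90 and 8.76 on the CAS arrays and 7.52, 7.89 and 8.58 on the SBM arrays, so that replicate 3 was the highest in both groups, while no member passed a test between the sources. Krt20, a keratin of mature enterocytes, followed the same order with 8.87, 9.20 and 10.82 with CAS and 8.11, 8.87 and 10.33 with SBM, and Apoa1, an apolipoprotein of chylomicrons, had 8.15, 8.63 and 9.88 with CAS and 7.32, 8.13 and 9.49 with SBM. Neither gene passed the threshold of the study. Because RNA of whole monolayers was measured, fewer cells of a type and less RNA per cell cannot be told apart.

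Cyp1a1 separated both sources more than any other gene. Its log2 intensity was 3.69, 4.07 and 4.00 with CAS and 7.02, 6.60 and 7.21 with SBM. The lowest SBM array lay 2.54 above the highest CAS array. The difference was −3.03 ± 0.22 (SE, n = 3 arrays per group, adjusted p = 2.9e-05), or an intensity of 15.2 ± 2.03 with CAS and 125 ± 25.9 with SBM (SD, n = 3 each). Since the background intensity is 15.1, the CAS arrays lay at background and the fold change is limited by it. The SDPP arrays had 5.74, 5.38 and 4.70, the YMW arrays 4.73, 4.95 and 4.57 and the MC arrays 4.38, 4.40 and 4.41. The CAS values therefore lay below, and the SBM values above, all 9 arrays of the remaining groups.

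Cyp1b1, a second AHR-induced cytochrome of the CYP1 family, went the same way. Its log2 intensity was 4.90, 4.41 and 4.40 with CAS and 6.98, 6.36 and 5.82 with SBM, with no overlap. It was 3.52-fold lower with CAS (log2 −1.82 ± 0.35 SE, unadjusted p = 0.000171, adjusted p = 0.0696), past the threshold of the study and not past the adjusted one. A second and dimmer probe set of Cyp1b1, with a mean log2 intensity of 3.52 below background, gave −0.29 in the fit of all probe sets (unadjusted p = 0.0717). The MC arrays, with 4.85, 3.53 and 3.04, all lay below the highest CAS array.

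The promoter windows of both cytochromes are shown because they carry the core of the AHR response element. The core is GCGTG, searched on both strands in the windows of RefSeq (GRCm38.p6), which run from 250 bases before to 50 bases after the start of each gene. Each of the 2 windows held 1 copy, in capitals, on the forward strand of Cyp1a1 54 bases before the start and on the reverse strand of Cyp1b1, where it reads CACGC, 76 bases before the start. The Cyp1a1 window is chr9:57697363-57697662 on the plus strand and the Cyp1b1 window chr17:79715012-79715311 on the minus strand.
Cyp1a1: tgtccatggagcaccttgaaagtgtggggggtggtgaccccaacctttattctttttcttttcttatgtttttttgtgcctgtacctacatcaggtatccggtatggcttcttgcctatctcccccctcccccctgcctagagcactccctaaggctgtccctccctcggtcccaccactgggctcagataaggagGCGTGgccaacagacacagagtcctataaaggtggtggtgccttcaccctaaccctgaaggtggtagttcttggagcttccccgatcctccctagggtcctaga
Cyp1b1: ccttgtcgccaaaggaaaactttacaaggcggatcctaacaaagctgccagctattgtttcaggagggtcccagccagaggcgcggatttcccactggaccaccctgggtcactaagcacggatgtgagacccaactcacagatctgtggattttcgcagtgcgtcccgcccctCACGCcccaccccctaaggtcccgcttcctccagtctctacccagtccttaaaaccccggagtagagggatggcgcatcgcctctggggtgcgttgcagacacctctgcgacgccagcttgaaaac

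The core alone is common. It occurred in 41.3% of the windows of 14749 measured genes, in 11 of 20 windows found for the genes higher with CAS, in 3 of 11 for the genes lower with CAS and in 6 of 12 for the AHR battery. The longer TNGCGTG, which contains the core, occurred in 6.57% of the windows of all measured genes and in neither window printed here. A match is a description of the letters and not a binding site, and only the 300 bases of each window were searched.

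The rest of the AHR battery differed less. Of its 17 measured members, 2 passed the threshold of the study, both lower with CAS, and 6 had an unadjusted p under 0.05, all 6 lower with CAS, where 2.76% of all genes tested were lower at that p. After median centring it was 7 members, where 7.08% of all genes were lower. Besides both cytochromes these were Nqo1, Nfe2l2, Slc7a5 and Ahrr. Nqo1, a quinone reductase, had 8.31, 8.22 and 8.11 with CAS and 8.79, 8.70 and 8.51 with SBM, a difference of −0.45 ± 0.12 (SE, adjusted p = 0.217). Ahrr, the repressor of the AHR, had 3.68, 3.65 and 3.59 with CAS and 4.45, 3.70 and 3.91 with SBM (adjusted p = 0.651). All 3 CAS arrays lay below the background of 3.91, and only the SBM array at 4.45 lay clearly above it. The receptor itself, Ahr, had a difference of −0.18 (unadjusted p = 0.0692), and its partner Arnt one of 0.07 (unadjusted p = 0.39). Cyp1a2, also of the CYP1 family, differed by only −0.06 (unadjusted p = 0.608). Aldh3a1, Scin and Xdh differed by −0.07, −0.08 and −0.07 (unadjusted p = 0.556, 0.57 and 0.834). The median difference of the list was −0.07, against 0.01 for all genes.

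Of 15 measured UDP-glucuronosyl and sulfotransferases 1 passed the threshold of the study, Ugt2b35, and it was also the only one at an unadjusted p under 0.05. Of 21 cytochromes of families 2, 3 and 4, 0 passed the threshold in limma and 1 was lower at an unadjusted p under 0.05, with a median of −0.03. Akr1c19 and Cbr3 also passed with lower values in CAS. Ugt2b35, which joins glucuronic acid to small molecules, had 6.59, 6.65 and 6.85 with CAS and 7.41, 7.25 and 7.32 with SBM (log2 −0.63 ± 0.09 SE, adjusted p = 0.0147). Akr1c19, an aldo-keto reductase, had 6.74, 6.85 and 7.06 with CAS and 7.81, 7.63 and 7.50 with SBM (−0.77 ± 0.13 SE, adjusted p = 0.0375). Cbr3, a carbonyl reductase, had 6.98, 6.98 and 7.10 with CAS and 7.61, 7.51 and 7.81 with SBM (−0.62 ± 0.10 SE, adjusted p = 0.0326). The groups did not overlap for any of these 3 genes, and for Ugt2b35 all 3 CAS arrays also lay below the 9 SDPP, YMW and MC arrays. Cbr3 fell under the 1.5-fold threshold without SBM replicate 3, and Ugt2b35 without CAS replicate 1.

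Targets of NRF2 were mostly on the lower side with CAS by small amounts. Of 24 measured targets, 1 passed the threshold of the study, Cbr3, and 22 had a negative difference. At an unadjusted p under 0.05, 9 were lower and 1 was higher, where 2.76% and 4.22% of all genes tested were lower and higher. After median centring 10 were lower and 1 was higher, where 7.08% and 1.76% of all genes were. Hmox1, heme oxygenase, had 8.24, 8.38 and 8.20 with CAS and 8.62, 8.64 and 8.49 with SBM (−0.32 ± 0.11 SE, adjusted p = 0.502). Osgin1, an oxidative stress response gene, differed by −0.48, and Srxn1, which repairs peroxiredoxins, by −0.23, with adjusted p of 0.458 and 0.526. The exception was Blvrb, biliverdin reductase B, at 0.29 (unadjusted p = 0.00764, adjusted p = 0.436). The mean of the 24 targets was 8.78, 8.83 and 8.88 on the CAS arrays and 9.01, 8.98 and 9.01 on the SBM arrays, with no overlap. With the MC arrays in the fit, the number lower at an unadjusted p under 0.05 fell to 4. A lower lean was not limited to these targets. All 27 measured genes of DNA replication and S phase had a negative difference, with a median of −0.16. Of these, 2 were lower at an unadjusted p under 0.05 and 0 passed the threshold of the study.

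Glutathione genes followed in part, and 3 of the genes named below are also NRF2 targets. Of 29 measured members, 0 passed the threshold of the study in limma, 8 were lower and 2 were higher with CAS at an unadjusted p under 0.05 (2.76% and 4.22% of all genes), and the 8 became 0 with the MC arrays in the fit. Gclc, the catalytic subunit of the rate-limiting enzyme of glutathione synthesis, differed by −0.27 (adjusted p = 0.563), Slc7a11, which imports cystine, by −0.30 (0.667), Gsr, which reduces oxidized glutathione, by −0.21 (0.25) and the transferase Gstm1 by −0.29 (0.175). The 2 higher members were the glutathione peroxidases Gpx3 at 0.27 and Gpx1 at 0.21, with adjusted p of 0.639 and 0.706. No member passed the adjusted threshold. Akr1b8, an aldo-keto reductase outside this list, had 10.07, 10.12 and 10.18 with CAS and 10.45, 10.41 and 10.48 with SBM (−0.32 ± 0.06 SE, adjusted p = 0.069).

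Feedback inhibitors of TGF-beta signalling were higher with CAS. Pmepa1, which takes receptor-activated SMADs out of the pathway, had 10.60, 10.41 and 10.33 with CAS and 9.58, 9.34 and 9.31 with SBM (log2 1.04 ± 0.10 SE, adjusted p = 0.000209). Skil, the SMAD co-repressor SnoN, had 8.40, 8.48 and 8.61 with CAS and 7.75, 7.58 and 7.51 with SBM (0.88 ± 0.10 SE, adjusted p = 0.0019). For both genes each CAS array lay above each of the 12 arrays of the remaining groups. Smad7, which blocks the type I receptor, had 6.52, 6.68 and 7.07 with CAS and 6.05, 5.84 and 6.23 with SBM (0.72 ± 0.19 SE, adjusted p = 0.232), and it passed the threshold of the study but not without CAS replicate 3. Its MC arrays, with 6.39, 6.57 and 6.70, overlapped the CAS arrays.

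Of the 27 measured members of the TGF-beta list, 5 passed the threshold of the study, all higher with CAS, and 13 had an unadjusted p under 0.05, all higher, where 4.22% of all genes tested were higher at that p. The 12 members whose CAS and SBM arrays did not overlap were also all higher with CAS, where 6.26% of all genes were. The median difference was 0.23, against 0.01 for all genes. It was 0.16 after median centring, when 9 members were higher at an unadjusted p under 0.05 and 1.76% of all genes were. A positive difference was found for 21 of the 27 members and a negative one for 6. The lowest was Id3 at −0.43 (unadjusted p = 0.17 in limma). Members with small differences included Cdkn1a (0.18), Tgfbi (0.03), Cdkn2b (−0.02) and Id1 (−0.02), each at an unadjusted p of 0.248 or more. The mean of the members was 7.42, 7.43 and 7.47 on the CAS arrays and 7.19, 7.13 and 7.19 on the SBM arrays. The remaining genes of the 13 included the ubiquitin ligases Smurf1 (0.35) and Smurf2 (0.17), which degrade SMADs and receptors, the inhibitory Smad6 (0.32), the decoy receptor Bambi (0.28) and the ligand Tgfb1 (0.38). None of these 5 passed an adjusted p of 0.05.

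The list also holds integrins, which passed neither threshold, and Thbs1. Itgav and Itgb6, which form an integrin that releases latent TGF-beta, had differences of 0.41 ± 0.08 and 0.38 ± 0.09 (SE), with adjusted p of 0.0696 and 0.175. Itga2, a collagen receptor subunit, had 0.38 ± 0.09 (SE, adjusted p = 0.181). Thbs1, thrombospondin 1, which activates latent TGF-beta, had 9.38, 9.05 and 8.81 with CAS and 8.89, 8.47 and 8.00 with SBM, a difference of 0.62 past the threshold of the study (unadjusted p = 0.0158, adjusted p = 0.564) although the groups overlapped, and that call was lost under 4 alternatives. Outside the list, the groups of the next 3 genes did not overlap. Lama3, a chain of the laminin under epithelia, had 7.12, 7.24 and 7.52 with CAS and 6.63, 6.45 and 6.67 with SBM (0.71 ± 0.12 SE, adjusted p = 0.0376). Pdgfb, a growth factor for mesenchymal cells, had 8.19, 8.15 and 7.76 with CAS and 7.26, 7.14 and 7.18 with SBM (0.84 ± 0.10 SE, adjusted p = 0.00265). Ldlrad4, a relative of Pmepa1 that also inhibits SMAD activation, was chosen after its values were seen and had 5.65, 5.54 and 5.37 with CAS and 4.95, 4.94 and 4.95 with SBM (0.57 ± 0.12 SE, adjusted p = 0.0876).

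**Figure D2:**
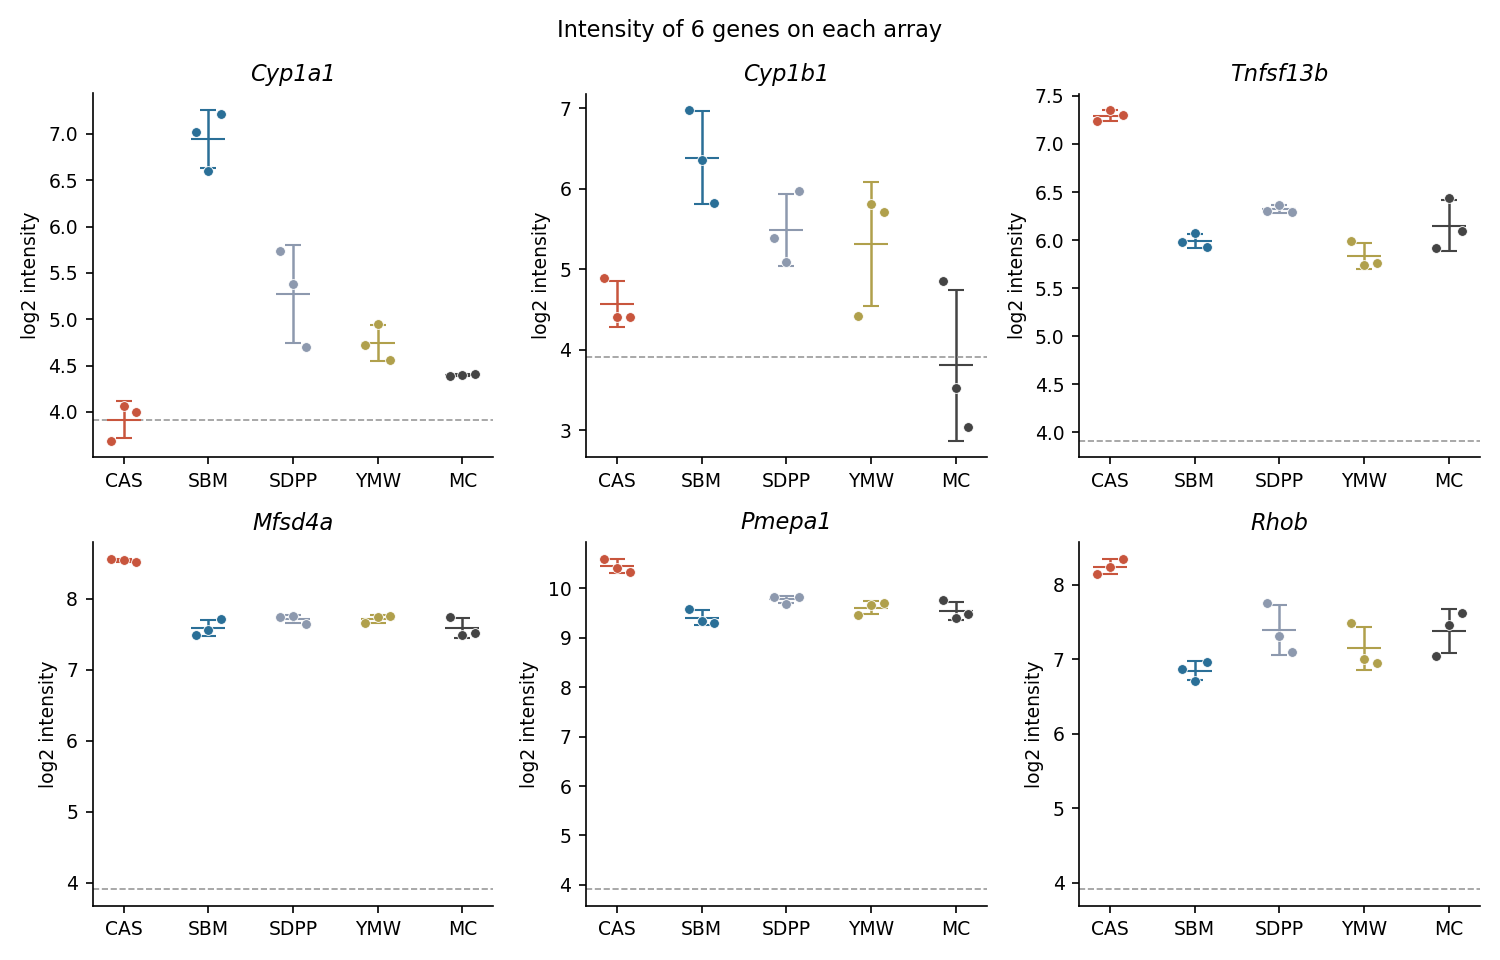
Log2 intensity (vertical axes) of Cyp1a1, Cyp1b1, Tnfsf13b, Mfsd4a, Pmepa1 and Rhob on each array of CAS, SBM, SDPP, YMW and MC. Points are arrays, the long bars means and the error bars SD (n = 3 arrays), and the dashed line is the background at 3.91. CAS stands apart for Tnfsf13b, Mfsd4a, Pmepa1 and Rhob, and SBM for Cyp1a1.

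The probe sets of 2 microRNAs of a single cluster were higher with CAS. Mir200b had 5.71, 5.78 and 5.94 with CAS and 4.87, 4.91 and 5.35 with SBM (log2 0.77 ± 0.13 SE, adjusted p = 0.0326), and Mir200a had 5.82, 6.27 and 6.39 with CAS and between 5.33 and 5.60 with SBM (0.68 ± 0.17 SE, adjusted p = 0.175). Both were chosen after their values were seen. The array detects their precursor or primary transcript and not the mature form. The MC arrays of Mir200b, with 4.94, 5.91 and 6.01, lay with 1 array among the SBM arrays and with 2 among or above the CAS arrays.

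The mature sequences are shown because the miR-200 family, known for restraining the epithelial-to-mesenchymal transition, splits by seed and not by cluster. The hairpins of miR-200b, miR-200a and miR-429 lie within 1846 bases of the minus strand of chromosome 4 (chr4:156053905-156055750, GRCm38.p6), and miR-200c and miR-141 lie on chromosome 6. Capitals mark the seed, bases 2 to 8, which is AAUACUG in the first 3 sequences and AACACUG in the last 2.
mmu-miR-200b-3p: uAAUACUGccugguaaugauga
mmu-miR-429-3p: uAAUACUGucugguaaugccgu
mmu-miR-200c-3p: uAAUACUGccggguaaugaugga
mmu-miR-200a-3p: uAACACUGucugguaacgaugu
mmu-miR-141-3p: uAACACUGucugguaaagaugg

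The chromosome 6 members did not pass. Mir200c had 5.01, 4.78 and 5.41 with CAS and 4.56, 4.97 and 4.96 with SBM (0.24 ± 0.17 SE, unadjusted p = 0.181), and Mir141, close to background, had 4.10, 4.00 and 4.23 with CAS and 3.85, 3.62 and 4.08 with SBM (0.26 ± 0.12 SE, unadjusted p = 0.0512). The groups overlapped for both. Whether the clusters differed from each other was not tested.

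Rhob, a small GTPase of stress fibres and endosomes and an early response gene, had the largest increase of all genes tested. Its log2 intensity was 8.14, 8.24 and 8.35 with CAS and 6.87, 6.71 and 6.96 with SBM, a difference of 1.40 ± 0.16 (SE, 2.64-fold, adjusted p = 0.0019). The highest of the SDPP, YMW and MC arrays was 7.75, below every CAS array.

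Ccn1 and Ccn2, matrix proteins induced by YAP and by serum response factor, were higher with CAS than with SBM. Of 22 measured YAP and serum response targets 3 passed the threshold of the study, all higher with CAS (0.234% of all genes). At an unadjusted p under 0.05, 5 were higher and 1 was lower (4.22% and 2.76% of all genes). After median centring 4 were higher and 1 was lower, where 1.76% and 7.08% of all genes were. Ccn1, Fos and Egr1 are among the members also counted with the early response genes below. Ccn1 had 9.73, 9.19 and 9.43 with CAS and 8.86, 8.72 and 8.73 with SBM (0.68 ± 0.12 SE, adjusted p = 0.0452). Ccn2, which is also a TGF-beta target and counted in that list too, had 9.03, 8.64 and 8.54 with CAS and 8.19, 7.76 and 7.74 with SBM (0.84 ± 0.15 SE, adjusted p = 0.0452). Here the SBM arrays stood apart. The SDPP and YMW arrays lay between 9.03 and 9.50 for Ccn1 and between 8.40 and 8.82 for Ccn2, within or near the range of CAS. Neither gene passed the threshold of the study once the MC arrays were in the fit, whose values for Ccn2 were 9.28, 6.74 and 6.42.

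Of the early response genes, those called were higher with CAS. Of 31 measured members, 3 passed the threshold of the study, all higher with CAS, and 8 were higher and 0 lower at an unadjusted p under 0.05, where 4.22% and 2.76% of all genes were. After median centring 5 were higher and 1 lower, where 1.76% and 7.08% of all genes were. Klf10, a repressor induced early by TGF-beta, had 8.49, 8.87 and 8.79 with CAS and 8.09, 7.83 and 8.34 with SBM (0.63 ± 0.13 SE, adjusted p = 0.0742). Fos had 9.10, 9.11 and 9.56 with CAS and 8.34, 8.66 and 9.01 with SBM (0.59 ± 0.17 SE, adjusted p = 0.324), and its call was lost under 7 of the 25 alternatives, as was that of Klf10 under 3, median centring among them for both. Egr1 and Jun, transcription factors of the same class, differed by 0.39 and 0.25 without passing the threshold of the study. Among single genes that passed after adjustment were Tns4, a tensin (0.42), Fhl2, a LIM domain cofactor (0.52), Plek2, a pleckstrin (0.51), and Ddr1, a receptor kinase for collagen (0.49), with adjusted p of 0.0306, 0.0327, 0.0423 and 0.0147 and fold changes under 1.5.

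**Figure D3:**
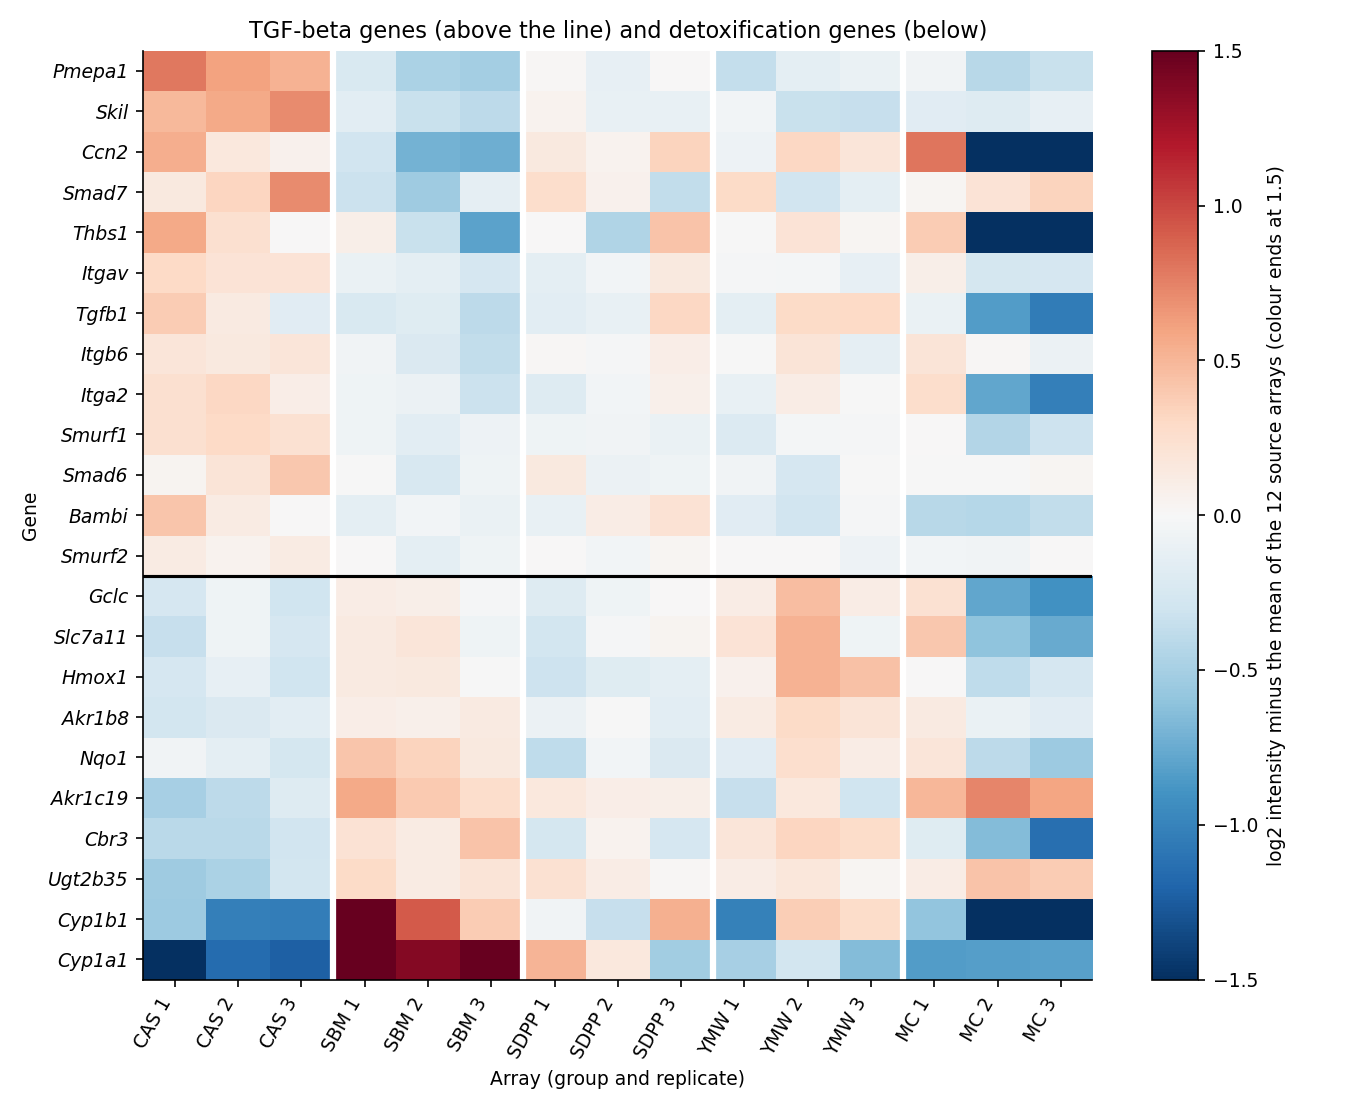
Log2 intensity of each gene (rows) on each of the 15 arrays (columns) minus its mean over the 12 CAS, SBM, SDPP and YMW arrays, in colour from −1.5 or lower (blue) to 1.5 or higher (red). Above the line are the 13 TGF-beta genes with an unadjusted p under 0.05, and below it 10 detoxification genes chosen after their values were seen. The 3 CAS columns are red above the line and blue below it, the SBM columns the reverse, apart from single pale or opposite cells. Both sets were chosen by their CAS and SBM values, so this contrast is not a separate result.

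Tnfsf13b had the smallest p of all genes. Its log2 intensity was 7.24, 7.35 and 7.30 with CAS and 5.98, 6.08 and 5.93 with SBM, a difference of 1.30 ± 0.09 (SE, adjusted p = 2.08e-05), or an intensity of 157 ± 6.37 with CAS and 63.8 ± 3.32 with SBM (SD, n = 3 each). The SDPP arrays had 6.30, 6.37 and 6.30, the YMW arrays 5.99, 5.74 and 5.76 and the MC arrays 5.92, 6.44 and 6.09, all below the CAS arrays. A second probe set of Tnfsf13b with a mean log2 intensity of 4.73 differed by 0.10, and the mean over both gave 0.70, which kept an adjusted p under 0.05. No other cue for B cells passed the threshold. Of 22 measured genes that support B cells and IgA, Tgfb1 was higher at an unadjusted p under 0.05, and Pigr, the receptor that carries IgA across the epithelium, was lower with 11.01, 11.11 and 11.08 with CAS and 11.42, 11.37 and 11.15 with SBM (−0.24 ± 0.07 SE, adjusted p = 0.319).

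No gene of the chemokine and cytokine signalling list or of the interferon list passed the threshold of the study. Of 34 measured chemokines and cytokine signalling genes, 0 passed it in limma. At an unadjusted p under 0.05, 4 were higher and 2 lower with CAS (4.22% and 2.76% of all genes). After median centring 1 was higher and 2 were lower, where 1.76% and 7.08% of all genes were. Tnfaip2 had the largest difference, −0.49 (adjusted p = 0.203), followed by Ccl6, a chemokine, at 0.40 (adjusted p = 0.639). Of 32 interferon-stimulated genes 0 passed, and 1 was lower at an unadjusted p under 0.05. Oas2, an antiviral enzyme, ranged from 5.96 to 6.23 with CAS and from 4.92 to 6.34 with SBM, so that the spread of the SBM arrays covered the CAS arrays. Sting1, a sensor of cytosolic DNA signals chosen after its values were seen, had 7.82, 7.81 and 7.33 with CAS and 7.18, 6.96 and 7.02 with SBM (0.60 ± 0.17 SE, adjusted p = 0.309), and it lost its call at the threshold of the study under 7 alternatives.

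Among the single genes called were transporters, which no list groups apart from Slc17a4. Mfsd4a, a transporter of the major facilitator family, had 8.56, 8.54 and 8.51 with CAS and 7.49, 7.56 and 7.71 with SBM (0.95 ± 0.07 SE, adjusted p = 3.89e-05). The SDPP, YMW and MC arrays lay between 7.48 and 7.76, among the SBM arrays. Slc17a4, an organic anion transporter of the phosphate transporter family, had 8.85, 8.89 and 9.08 with CAS and 7.95, 7.97 and 8.23 with SBM (0.89 ± 0.14 SE, adjusted p = 0.0282), also above all 9 arrays of the remaining groups. Slc4a11, of the bicarbonate transporter family, was higher with CAS by 0.69 ± 0.09 (SE, adjusted p = 0.00733), and P2rx2, an ATP-gated channel, by 0.72 ± 0.11 (SE, adjusted p = 0.0152).

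Of 26 measured genes of ion channels and fluid secretion, 1 passed the threshold of the study, Slc26a3, lower with CAS, where 0.0744% of all genes did. At an unadjusted p under 0.05, 3 were lower and 1 was higher (2.76% and 4.22% of all genes). Aqp1, an aquaporin of the list, differed by −0.55 without passing the threshold of the study. Aqp4 and Aqp5, outside that list, passed it in opposite directions. None of these genes passed the adjusted threshold. Slc26a3, which exchanges chloride for bicarbonate at the apical membrane, had 5.71, 5.91 and 5.96 with CAS and 6.87, 6.29 and 6.28 with SBM (−0.62 ± 0.18 SE, adjusted p = 0.306). The aquaporin Aqp4 had 6.69, 6.58 and 6.56 with CAS and 7.48, 7.22 and 6.89 with SBM (−0.59 ± 0.16 SE, adjusted p = 0.234). The aquaporin Aqp5, named after its values were seen, had 6.82, 6.81 and 6.19 with CAS and 5.95, 5.84 and 5.97 with SBM (0.69 ± 0.15 SE, adjusted p = 0.112). The calls of Slc26a3, Aqp4 and Aqp5 were lost in 2, 4 and 2 of the 6 fits that left out 1 CAS or SBM array. Among 22 claudins and tight junction genes, 0 passed the threshold, Cldn15 was lower (−0.28) and Cldn4 higher (0.22) at an unadjusted p under 0.05.

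Both sources deliver protein, and no amino acid transporter or peptidase of the lists passed the threshold of the study. Of 27 measured amino acid and peptide transporters, 2 were higher and 6 lower with CAS at an unadjusted p under 0.05 (4.22% and 2.76% of all genes), and the 6 became 2 with the MC arrays in the fit or without CAS replicate 1. Slc3a2 and Slc7a5, the 2 chains of a carrier of large neutral amino acids, had differences of −0.25 ± 0.06 and −0.29 ± 0.07 (SE), with adjusted p of 0.157 and 0.215. Slc7a8, a basolateral amino acid carrier, had 6.45, 6.47 and 7.14 with CAS and 5.91, 6.16 and 6.46 with SBM, with overlap. Of 17 measured peptidases of the list 0 passed. Pepd, a cytosolic enzyme that splits dipeptides ending in proline, was higher at an unadjusted p under 0.05 (0.21, adjusted p = 0.584).

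Aminoacyl-tRNA synthetases, which load amino acids onto tRNA, and ATF4 targets, which respond to amino acid shortage, lay slightly lower with CAS. Of 17 synthetases 16 had a negative difference, with a median of −0.10, and 5 were lower at an unadjusted p under 0.05 (Sars, Rars, Yars, Wars and Iars, between −0.18 and −0.14). Of 26 ATF4 targets 22 had a negative difference, with a median of −0.11, and 6 were lower at that p. Of all genes, 2.76% were lower at that p and 8989 of 18820 had a negative difference. Among the 6 ATF4 targets, Slc3a2, Slc7a5, Slc7a11 and Slc7a1 are also counted with the lower amino acid transporters above. Slc7a5 is counted in the AHR battery too, and Slc7a11 with the NRF2 targets and the glutathione genes. After median centring 8 synthetases and 9 ATF4 targets were lower, where 7.08% of all genes were. No member of either list passed the threshold of the study or the adjusted threshold. The mean of the synthetases was 9.46, 9.49 and 9.50 on the CAS arrays and 9.59, 9.58 and 9.57 on the SBM arrays. With the MC arrays in the fit the 5 synthetases became 0 and the 6 ATF4 targets became 1.

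Lipid and nuclear receptor genes gave 1 adjusted call. Lpcat4, which returns fatty acids to lysophospholipids, had 9.52, 9.38 and 9.43 with CAS and 8.87, 8.74 and 9.04 with SBM (0.56 ± 0.09 SE, adjusted p = 0.0326) at a fold change of 1.47. Of 22 targets of PPAR-alpha 21 had a negative difference, with a median of −0.18, and 4 were lower at an unadjusted p under 0.05 (2.76% of all genes). The 4 became 2 with the MC arrays in the fit, 2 without CAS replicate 1 or SBM replicate 3 and 11 without CAS replicate 3, and the median lay between −0.26 and −0.06 when 1 array was left out. Among them Cpt1a, which admits fatty acids to mitochondria, had 8.85, 8.89 and 9.24 with CAS and 9.34, 9.31 and 9.36 with SBM (−0.34 ± 0.09 SE, adjusted p = 0.271), and Vnn1, a pantetheinase, differed by −0.50 (adjusted p = 0.215). Vdr, the vitamin D receptor, averaged 9.37 ± 0.23 with CAS and 9.85 ± 0.16 with SBM (SD, n = 3 each), with no overlap (−0.48 ± 0.11 SE, adjusted p = 0.157). The 6 retinoic acid and retinoid X receptors differed by −0.17 to 0.18 with 0 of them under an unadjusted p of 0.05. Lipg, a lipase lower with CAS by 0.72, and Esrrg, an orphan nuclear receptor lower by 0.68, passed the threshold of the study with adjusted p of 0.067 and 0.09.

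**Figure D4:**
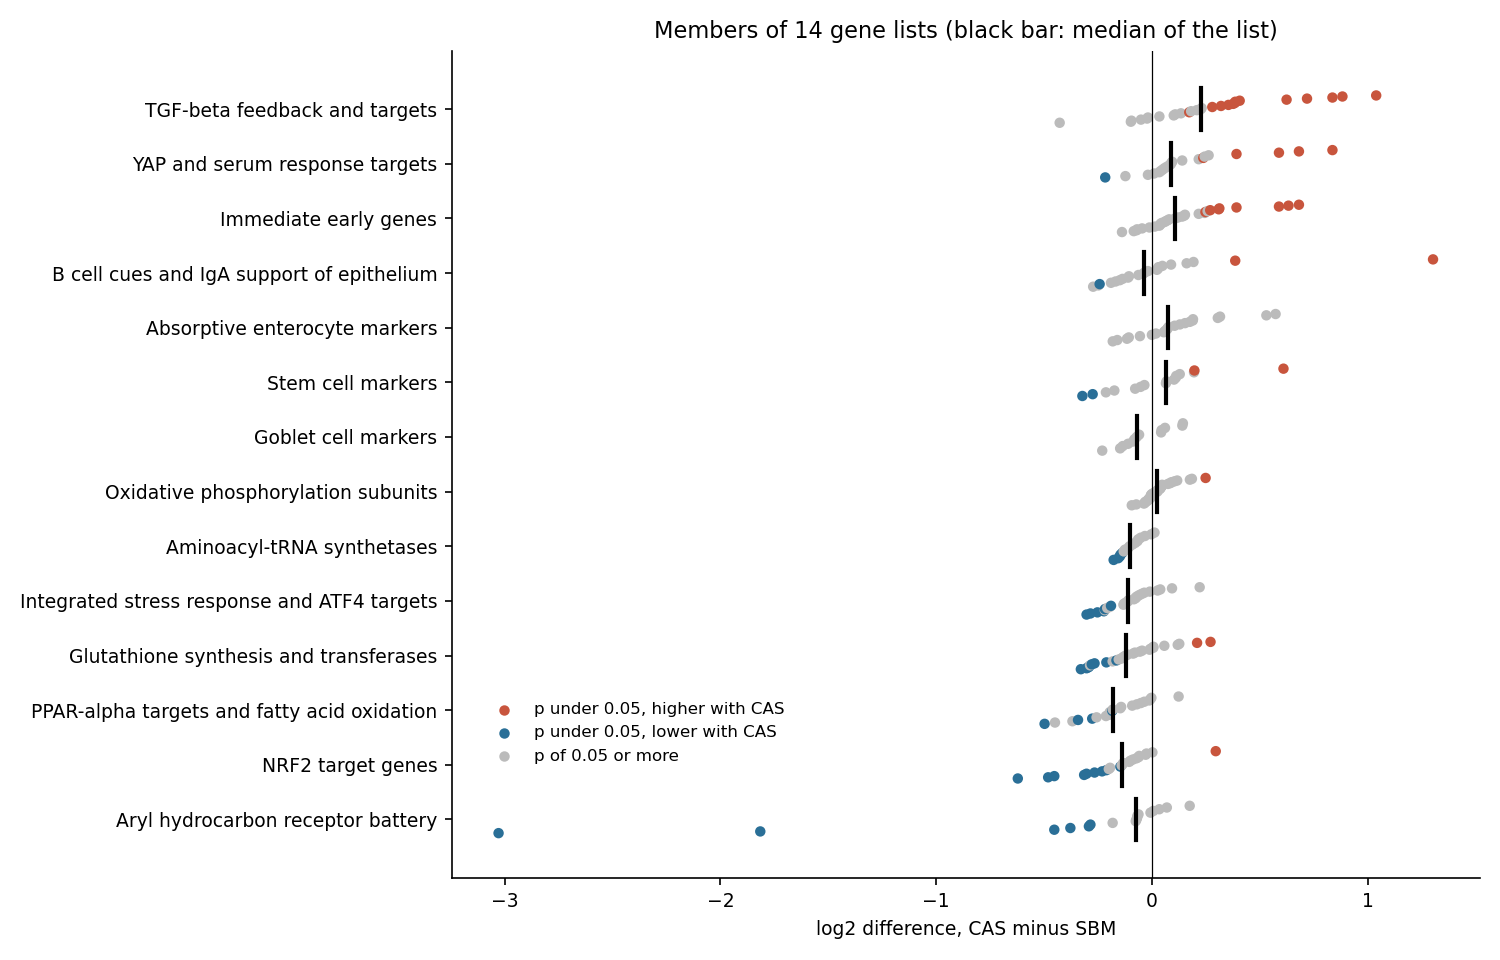
Log2 difference between CAS and SBM (horizontal axis) of each measured member of 14 gene lists (rows), with a black bar at the median of the list. Red and blue points are members higher and lower with CAS at an unadjusted p under 0.05. The TGF-beta list has its median at 0.23 and no blue point, and the NRF2 list has its median at −0.14 and 1 red point.

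Further genes passed the adjusted threshold outside these groups. Tenm4, a teneurin of the cell surface, had 6.05, 6.04 and 5.98 with CAS and 5.26, 5.18 and 5.15 with SBM (0.83 ± 0.10 SE, adjusted p = 0.0019). Mtmr11, a relative of phosphoinositide phosphatases, was higher by 0.99 ± 0.12 (adjusted p = 0.0019), and Nfatc2, a calcium-dependent transcription factor, by 0.73 ± 0.12 (adjusted p = 0.0306). Gch1, which starts the synthesis of tetrahydrobiopterin, had 8.30, 8.49 and 8.52 with CAS and 7.53, 7.48 and 7.93 with SBM (0.79 ± 0.14 SE, adjusted p = 0.043), but its MC mean of 8.31 lay near CAS. Fam20c, the Golgi kinase known for phosphorylating secreted proteins such as casein, was lower with CAS, with 6.95, 6.66 and 6.61 against 7.80, 7.58 and 7.19 with SBM (−0.78 ± 0.14 SE, adjusted p = 0.0468). Cym, which encodes the milk-clotting protease chymosin and was chosen after its values were seen, had 9.13, 8.50 and 7.79 with CAS and 7.96, 7.63 and 6.84 with SBM, with overlap (1.00 ± 0.36 SE, adjusted p = 0.564), and it lost its call at the threshold of the study under 4 alternatives.

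The remaining groups place each source beside the rest of the series. For 34 of the 44 genes higher with CAS, the mean of SDPP and YMW lay nearer to SBM than to CAS, and for 37 the MC mean did. All 3 CAS arrays lay above all 6 SDPP and YMW arrays for 26 of the 44 genes, and all 3 SBM arrays lay below them for 9. Of the 14 genes lower with CAS, the mean of SDPP and YMW lay nearer to SBM for 8 and nearer to CAS for 6, the MC mean lay nearer to CAS for 9 and nearer to SBM for 5, and all 3 CAS arrays lay below the 6 other arrays for 7. These counts are a description, since the genes were picked by their CAS and SBM values and those arrays enter on both sides. The same counts were not made over all genes tested, so no share stands beside them.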

How the data were processed

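RMA had been applied by the authors to the intensity values as deposited. This method subtracts background, brings all arrays to a common distribution and merges probes into 1 value per probe set; the version is not given in the sources used here. The values are linear (3.02 to 10739, array medians 21.7 to 24.1), and log2 was taken before any step. Arrays give no counts, and their number limits the precision. Of 35556 probe sets, 21218 carried 1 symbol in the platform annotation, 1881 several and 12457 none. The brightest probe set of each of 18820 genes was kept. Background was set at log2 3.91 (intensity 15.1), below which lay 95% of 1157 receptor genes for odorants and pheromones, and 12870 genes averaged above it. CAS minus SBM was tested with limma 3.58.1 in R 4.3.3 from 4 group means over the 12 CAS, SBM, SDPP and YMW arrays, with an intensity-dependent prior variance and Benjamini-Hochberg adjustment over all genes. MC arrays spread more, so they were left out of the fit and are described only. In a simulation of this comparison over 18820 genes, an adjusted p under 0.05 was reached by 37 of 50 genes given a 1.5-fold change, by 45 of 50 given a 2-fold change and by 6 of 18620 left as they were. The threshold of the study was passed by 28 of 50, 48 of 50 and 44 of 18620 of the same genes. It was passed by 58 genes in the data. The simulated noise was drawn for each gene alone, so it held no variation shared between genes.

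The comparison, its members and the 51 gene lists (1124 of 1253 entries measured) were chosen with earlier results of these data known, and the lists are described without a set test. The naming rule took up to 30 genes by adjusted p, up to 12 in each direction by size among those past the threshold of the study, above background and without overlap, up to 4 members of each list past that threshold or 2 where none was, and the RT-qPCR genes of the study, retinoid receptors and cell type markers. It left predicted genes, odorant receptors and small RNAs out of its first 2 parts. Genes outside the rule, most of them list members with an unadjusted p under 0.05, were named after their values were seen. Promoter windows and microRNAs are from RefSeq (GRCm38.p6).

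Each gene was refitted under 25 alternatives: 1 prior variance, a robust prior, an intensity-based moderated statistic, all 15 arrays, the 6 arrays alone, a replicate block, genes above background, a second quantile normalization, median centring, log2(intensity + 10), array weights, all probe sets, the mean over probe sets and the omission of each of the 12 arrays. Other limits on the fold change were tried for the counts.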

Additional observations from a re-analysis of the deposited data

How the results depend on the processing

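Of 56 named genes past the threshold of the study, all 56 kept their direction under each of the 25 alternatives, 25 kept that call under all of them and 31 lost it under at least 1. Of 36 genes with an adjusted p under 0.05, 7 kept it under all. The adjusted calls, 31 higher and 5 lower with CAS, became 17 and 3 with 1 prior variance, 10 and 2 with all 15 arrays, 7 and 1 with the 6 arrays alone, 85 and 18 with array weights, and 11 and 1 over all probe sets. They included 8 lower among genes above background and 15 higher after median centring. The counts at the threshold of the study, 44 higher and 14 lower, became 303 and 105 over all probe sets, of which 349 had no symbol or several, 795 and 520 without a limit on the fold change, 0 and 2 with a log2 change above 1.5, and 6 lower with log2(intensity + 10). Without 1 array they ranged from 41 to 71 higher (71 without SBM replicate 1) and from 14 to 24 lower (24 without SBM replicate 1 or CAS replicate 3), and the adjusted calls from 8 (without SBM replicate 2) to 25 higher and from 1 to 6 lower. Median centring lowered the median of all genes to −0.06, and genes higher with CAS were then 68.2% of the adjusted calls, against 86.1%. Same-numbered CAS and SBM arrays correlated at r = 0.23, 0.073 and 0.47 in their deviations from the group means, so that not every pair was above 0.1, and over all 4 sources 4 of 18 pairs were (median r = −0.15). The numbers were therefore not taken as pairs. A fit with the replicate number as a block gave 11 higher and 1 lower adjusted calls and left the 44 and 14 as they were.

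Direction turned for 10 named genes, none past a threshold. Without 1 array the log2 difference ranged from −0.042 to 0.50 for Pla2g12b, from −0.068 to 1.14 for Krt20, from −0.23 to 0.016 for Rxra, from −0.16 to 0.050 for Rxrb, from −0.16 to 0.081 for Lyz1, from −0.24 to 0.0017 for Muc2, from −0.24 to 0.13 for Olfm4, from −0.030 to 0.020 for Actb and from −0.0053 to 0.13 for Arnt. Median centring gave −0.066 for Actb and −0.0030 for Lgr5, and array weights gave −0.0019 for Actb. The cause was not tested. Genes near background, such as Cyp1a1 with CAS, are limited in their fold change by it.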
